A study of Mus musculus with 12 samples.

Results

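The guanylate-binding proteins are large GTPases that interferons induce, and their 10 genes examined here, Gbp2, Gbp2b, Gbp3, Gbp4, Gbp5, Gbp6, Gbp7, Gbp8, Gbp9 and Gbp10, were chosen by family membership from a table of 55335 mouse genes. The RNA came from BMDMs, short for bone marrow-derived macrophages: marrow cells that macrophage colony-stimulating factor turned into macrophages in culture. BMDMs of wild-type C57BL/6 mice and of Nlrp3-/- mice, which carry a germline knockout of the inflammasome sensor gene Nlrp3 in every cell, were each left as controls or given lipopolysaccharide (LPS) and then ATP. That made 4 groups of 3 libraries and 12 libraries in all. The labels give 4 hours of LPS followed by 30 minutes of ATP, whereas the methods of the study give 12 hours of LPS and 2 hours of ATP for such cultures, and donors aged 8 weeks. The study says in general that its sample sizes count independent replicates, but the labels do not say whether the 3 libraries of a group came from separate mice or cultures, so p-values measure the spread between these libraries, which may be technical. The question of the genotype comparison was what loss of Nlrp3 did to macrophages under a stimulus that activates the inflammasome.

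Guanylate-binding proteins bind GTP and assemble into coats on the vacuoles of intracellular parasites and on the surface of bacteria that reach the cytosol. Their coats expose microbial LPS and DNA to the caspase-11 (gene Casp4) and AIM2 inflammasome pathways. In macrophages the genes are known targets of interferon-gamma, and LPS reaches them through the interferon-beta that it makes the cell secrete.

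In the GENCODE M21 annotation of build GRCm38 the 10 protein-coding genes formed 2 clusters of 5. On the plus strand of chromosome 3 lay Gbp5 (ENSMUSG00000105504, chr3:142493978-142522344), Gbp7 (ENSMUSG00000040253, chr3:142530342-142550149), Gbp3 (ENSMUSG00000028268, chr3:142560026-142573209), Gbp2b (ENSMUSG00000040264, chr3:142594847-142619179) and Gbp2 (ENSMUSG00000028270, chr3:142620602-142638008). On the minus strand of chromosome 5 lay Gbp8 (ENSMUSG00000034438, chr5:105014150-105139540), Gbp9 (ENSMUSG00000029298, chr5:105077630-105139539), Gbp4 (ENSMUSG00000079363, chr5:105115767-105139586), Gbp10 (ENSMUSG00000105096, chr5:105215699-105239533) and Gbp6 (ENSMUSG00000104713, chr5:105270702-105293698). The submitters' processing notes name build GRCm39, so these GRCm38 positions describe the genes and were not used to count reads. Gbp8, Gbp9 and Gbp4 overlap on the same strand and share 60 or 61 exonic bases.

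The 250 bases before the RefSeq transcript start (GRCm38.p6, plus strand) are shown, as a description, for 3 chromosome 3 genes that behaved differently. Gbp2 had the highest level, Gbp5 the largest change and Gbp2b a level near 0. Capitals mark matches to 2 motif cores, each 5′ to 3′. One is the interferon-stimulated response element (ISRE) core, written TTTCNNTTTC on one strand and GAAANNGAAA on the other, bound by IRF proteins. The other is the gamma-activated site (GAS) core TTCNNNGAA, found in many promoters that respond to interferon-gamma.
Gbp2, chr3:142620413-142620662: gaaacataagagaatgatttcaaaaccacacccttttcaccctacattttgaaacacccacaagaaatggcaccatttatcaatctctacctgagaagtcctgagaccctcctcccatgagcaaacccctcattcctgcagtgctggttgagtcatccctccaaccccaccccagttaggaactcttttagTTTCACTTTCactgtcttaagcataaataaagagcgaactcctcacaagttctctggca
Gbp5, chr3:142496684-142496933: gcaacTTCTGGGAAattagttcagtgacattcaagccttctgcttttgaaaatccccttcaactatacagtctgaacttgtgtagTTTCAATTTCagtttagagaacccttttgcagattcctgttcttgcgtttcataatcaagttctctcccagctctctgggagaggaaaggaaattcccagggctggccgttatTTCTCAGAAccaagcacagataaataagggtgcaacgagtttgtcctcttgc
Gbp2b, chr3:142594597-142594846: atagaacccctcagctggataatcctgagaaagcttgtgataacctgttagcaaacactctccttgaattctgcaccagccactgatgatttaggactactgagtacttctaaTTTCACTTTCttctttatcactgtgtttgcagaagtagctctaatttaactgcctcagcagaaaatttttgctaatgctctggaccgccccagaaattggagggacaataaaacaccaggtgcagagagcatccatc

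RefSeq promoters were matched for 5 of the 10 members, those on chromosome 3, with 6 starts because Gbp3 has a pair of them. Both strands were searched from 250 bases before to 50 bases after each start. Gbp2 held the ISRE core TTTCACTTTC from -59 to -50 of its start, counting the start as 0. Gbp2b held the same letters, TTTCACTTTC, from -137 to -128. In Gbp5 the ISRE core was TTTCAATTTC from -165 to -156, and GAS cores stood from -245 to -237 (TTCTGGGAA) and from -52 to -44 (TTCTCAGAA).

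Gbp7 carried the ISRE core TTTCAGTTTC from -53 to -44 and GAS cores from -106 to -98 (TTCCAGGAA) and from -87 to -79 (TTCTCAGAA). At the upstream start of Gbp3 there were 2 overlapping ISRE cores, TTTCAGTTTC from -45 to -36 and TTTCTATTTC from -39 to -30, and at its other start no match. Among 32851 RefSeq promoters of the same length, 3.44% held the ISRE core, 8.3% the GAS core and 0.454% both. A match describes letters only and is not a bound site. Gbp2b, whose level stayed close to 0, had the same ISRE letters as Gbp2, the most abundant member.

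**Figure D1:**
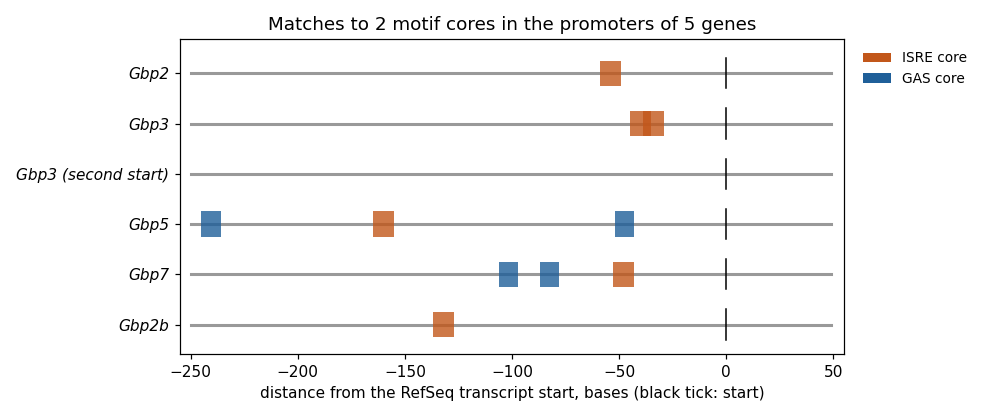
Positions of ISRE core matches (orange) and GAS core matches (blue) in 6 promoters of 5 guanylate-binding protein genes, in bases from the RefSeq transcript start (black tick) on the horizontal axis. ISRE matches lie between -59 and -30 in Gbp2, Gbp7 and the upstream start of Gbp3, and farther out in Gbp5 and Gbp2b, while GAS matches are seen in Gbp5 and Gbp7.

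The values are fragments mapped to a gene scaled by transcript length and library size (FPKM), so levels may be compared between genes. The knockout labels were checked first. Nlrp3 stood at 9.24 to 10.1 FPKM in wild-type controls and at 32.1 to 33.6 with LPS+ATP, and was listed at 0 in all 6 Nlrp3-/- libraries. Genotype did not vary alone. Xist did not exceed 0.0416 FPKM in any wild-type library and was at 32.8 to 56.3 in all Nlrp3-/- libraries, so the sex of the donors and their genotype cannot be told apart. Summed macrophage markers (7 genes) ran from 18900 to 21000 FPKM in controls and from 11000 to 11700 with LPS+ATP, but single markers differed. Adgre1 went from 234 to 240 FPKM in wild-type controls up to 451 to 468 with LPS+ATP, and from 181 to 186 up to 324 to 330 in Nlrp3-/- BMDMs. Csf1r was at 248 to 258 in wild-type controls and 174 to 181 with LPS+ATP, and at 161 to 167 and 174 to 180 in Nlrp3-/- BMDMs. Summed neutrophil and granulocyte precursor markers (7 genes) were at 322 to 358 in wild-type libraries, 1760 to 1800 in Nlrp3-/- controls and 691 to 695 in Nlrp3-/- LPS+ATP libraries, and summed fibroblast markers (5 genes) at 157 to 183 against 890 to 1180, with no marker of either list at 0 throughout. Dendritic cell markers (4 genes) summed to 0.624 to 5.49 FPKM and endothelial ones (3 genes) to 3.96 to 11.1. Relative depth was estimated from the most common ratio between libraries of low FPKM values in genes with 1 transcript. By that estimate the deepest library had 1.218 times the depth of the shallowest.

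LPS+ATP raised 8 of the 10 guanylate-binding protein genes in wild-type BMDMs and the same 8 in Nlrp3-/- BMDMs. The exceptions were Gbp8, which was called in neither genotype, and Gbp2b, which was too low to test. The ratio of mean FPKM of Gbp8 was 2.28 in wild-type and 1.11 in Nlrp3-/- BMDMs. The summed level of the 10 genes went from 35.5 ± 1.02 FPKM (SD, n = 3) in wild-type controls to 1330 ± 17.9 with LPS+ATP, and from 40.0 ± 0.5 to 1310 ± 6.81 in Nlrp3-/- BMDMs. A gene was called where limma gave a Benjamini-Hochberg adjusted p under 0.05 over 12622 tested genes and a difference of at least 1 on the log2(FPKM + 1) scale. By that rule 8.25% of tested genes were called higher in wild-type and 6.64% in Nlrp3-/- BMDMs. Control and LPS+ATP libraries did not overlap in 9 of the 9 tested members in wild-type and in 8 of 9 in Nlrp3-/- BMDMs, where 78.1% and 77.4% of tested genes did not overlap. Of the 10 members 9 passed the filter on low values, and Gbp4 and Gbp10 passed it through their LPS+ATP libraries alone, so they had to differ. The median log2 difference of these 9 was 4.49 in wild-type and 4.43 in Nlrp3-/- BMDMs, against -0.25 and -0.24 over all tested genes. In bulk RNA, more cells expressing a gene and more RNA per cell cannot be told apart.

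**Figure D2:**
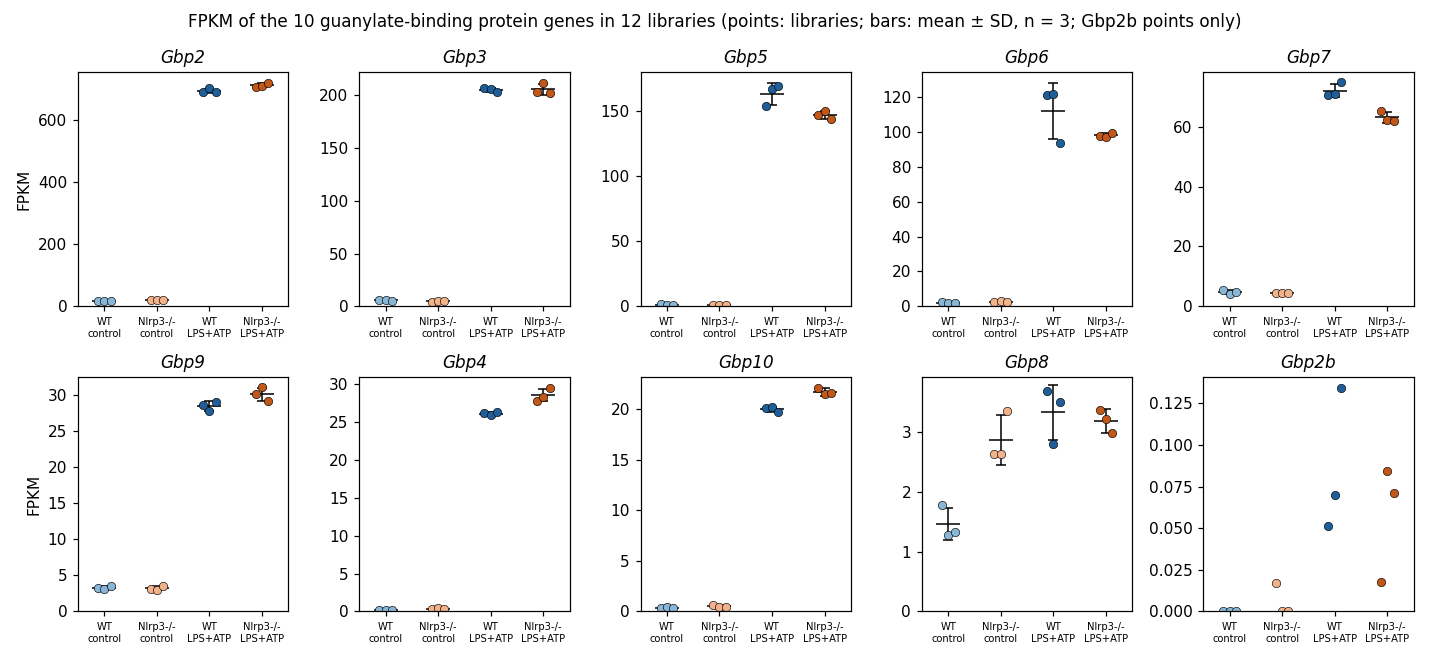
FPKM (vertical axes, each from 0) of the 10 guanylate-binding protein genes in the 12 libraries, with 1 point per library and bars for the mean ± SD of 3 libraries, except for Gbp2b, where single libraries are at 0 and points alone are drawn. In 8 genes both LPS+ATP groups stand far above both control groups, in Gbp8 the wild-type controls alone stand below the rest, and Gbp2b does not exceed 0.134 FPKM.

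Gbp2, Gbp5 and Gbp2b encode the members that carry a C-terminal prenylation signal, which lets them insert into membranes. Gbp2, which coats parasite vacuoles and cytosolic bacteria, was at 15.5, 16.5 and 17.0 FPKM in wild-type controls and at 691, 702 and 691 with LPS+ATP. In Nlrp3-/- BMDMs it was at 20.6, 20.6 and 19.9 in controls and at 706, 711 and 720 with LPS+ATP. Control and LPS+ATP libraries did not overlap in either genotype, and the ratio of means was 42.6 in wild-type and 35.0 in Nlrp3-/- BMDMs. On the log2(FPKM + 1) scale the differences were 5.33 (SE 0.03, limma adjusted p = 3.079e-16) and 5.06 (SE 0.03, limma adjusted p = 6.436e-16). With LPS+ATP only 47 tested genes in wild-type and 39 in Nlrp3-/- BMDMs had a higher mean level than Gbp2.

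Gbp5, which promotes inflammasome assembly, went from 1.45, 1.13 and 1.10 FPKM in wild-type controls to 154, 167 and 169 with LPS+ATP. In Nlrp3-/- BMDMs it went from 0.945, 0.798 and 0.877 to 147, 150 and 144. Its differences, 6.21 and 6.31 on the log2(FPKM + 1) scale (SE 0.06 each, limma adjusted p = 1.019e-14 and 9.406e-15), were the largest of the 9 tested members in each genotype. The ratios of mean FPKM were 134 and 169. Gbp5 thereby moved from the seventh place among the 10 genes in controls to the third with LPS+ATP in both genotypes.

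Gbp2b, the gene long known as mouse Gbp1, was listed at 0 in all 3 wild-type controls and in 2 of 3 Nlrp3-/- controls, with 0.0171 FPKM in the third. With LPS+ATP it was at 0.0511, 0.0698 and 0.134 in wild-type and at 0.0176, 0.0842 and 0.071 in Nlrp3-/- libraries. Corrected for relative depth, the 7 values above 0 were 1.0 to 7.83 times the lowest of them and lay near whole multiples of it, from 1 to 8. The Nlrp3-/- control at 0.0171 and the Nlrp3-/- LPS+ATP library at 0.0176 stood at the same step, so those groups were not apart. Gbp2b did not pass the filter and gets no fold here. Its longest transcript aligned to that of Gbp2 at 83.4% identity over 61.3% of its length, with no stretch at 95% identity or more.

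Gbp3 and Gbp7 complete the chromosome 3 cluster. Gbp3 was at 5.97, 6.17 and 5.41 FPKM in wild-type controls and at 207, 206 and 203 with LPS+ATP, and at 4.46, 5.25 and 4.82 against 203, 212 and 202 in Nlrp3-/- BMDMs. It was the next most abundant member after Gbp2 in all 4 groups, and its control and LPS+ATP libraries were far apart. The differences were 4.91 (SE 0.05, limma adjusted p = 1.709e-14) and 5.15 (SE 0.05, limma adjusted p = 1.376e-14) on the log2(FPKM + 1) scale.

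Gbp7, which takes part in the assembly of the phagocyte NADPH oxidase, was at 5.40, 4.05 and 4.63 FPKM in wild-type controls and at 70.7, 71.1 and 74.9 with LPS+ATP. In Nlrp3-/- BMDMs it stood at 4.26, 4.41 and 4.30 in controls and at 65.2, 62.3 and 62.0 with LPS+ATP. Its control level was close to that of Gbp3, but its rise was smaller, with ratios of mean FPKM of 15.4 and 14.6 against 35.1 and 42.4 for Gbp3. The log2(FPKM + 1) differences of Gbp7 were 3.69 and 3.59 (SE 0.07 each, limma adjusted p = 1.522e-12 and 2.437e-12).

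On chromosome 5, Gbp6 and Gbp10 are near copies: 88.7% of the Gbp10 transcript aligned to Gbp6 at 95% identity or more, and 99.2% of the Gbp6 transcript to Gbp10. Both also share exons on the same strand with the annotated gene Gm43302, 29.0% of the exonic bases of Gbp6 and 46.3% of those of Gbp10. At 95% identity or more, 100% of the Gbp6 transcript and 99.7% of the Gbp10 transcript aligned to Gm43302. Most reads of these 3 genes may thus be split among them, and the single values are uncertain. Gbp6 was at 2.59, 1.81 and 1.81 FPKM in wild-type controls and at 121, 122 and 93.8 with LPS+ATP, and at 2.38, 2.83 and 2.55 against 97.9, 97.2 and 99.3 in Nlrp3-/- BMDMs. One wild-type LPS+ATP library, replicate 3, lay well under the other two. Gbp10 was at 0.389, 0.402 and 0.307 FPKM in wild-type controls and at 20.1, 20.2 and 19.7 with LPS+ATP, and at 0.628, 0.463 and 0.455 against 22.1, 21.5 and 21.6 in Nlrp3-/- BMDMs.

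Control and LPS+ATP libraries of Gbp6 and of Gbp10 did not overlap. The log2(FPKM + 1) differences of Gbp6 were 5.21 and 4.79 (SE 0.11 each, limma adjusted p = 4.714e-12 and 1.213e-11), and those of Gbp10 were 3.94 and 3.91 (SE 0.05 each, limma adjusted p = 8.321e-14 and 1.143e-13). Gm43302 itself, named here after its values were seen, rose by 4.29 and 4.27 on that scale (limma adjusted p = 1.14e-08 and 1.617e-08).

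Gbp4 and Gbp9 also lie in the chromosome 5 cluster. Gbp4 was the lowest of the 9 tested members in controls, at 0.218, 0.19 and 0.226 FPKM in wild-type and 0.334, 0.429 and 0.35 in Nlrp3-/- BMDMs. With LPS+ATP it reached 26.2, 25.9 and 26.4 in wild-type and 27.8, 28.4 and 29.5 in Nlrp3-/- BMDMs. The ratios of mean FPKM were 124 and 76.9, while the differences on the log2(FPKM + 1) scale were 4.49 and 4.43 (SE 0.04 each, limma adjusted p = 7.509e-15 and 8.113e-15). The added 1 is larger than the control level and understates the change. With a pseudocount of 0.1 the differences were 6.40 in wild-type and 5.93 in Nlrp3-/- BMDMs.

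Gbp9 was at 3.26, 3.05 and 3.60 FPKM in wild-type controls and at 28.6, 27.8 and 29.1 with LPS+ATP. In Nlrp3-/- BMDMs it was at 3.18, 3.01 and 3.50 in controls and at 30.1, 31.1 and 29.2 with LPS+ATP. Controls and LPS+ATP libraries were apart in both genotypes, with ratios of mean FPKM of 8.62 and 9.32. Its log2(FPKM + 1) differences, 2.78 and 2.88 (SE 0.06 each, limma adjusted p = 2.631e-12 and 2.519e-12), were the smallest of the 8 called members.

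Gbp8 stood apart from the others. It was at 1.77, 1.28 and 1.33 FPKM in wild-type controls and at 3.67, 2.80 and 3.50 with LPS+ATP, a ratio of means of 2.28 with no overlap. In Nlrp3-/- BMDMs the controls, at 2.62, 2.63 and 3.34, overlapped the LPS+ATP libraries at 3.36, 3.21 and 2.97, and the ratio of means was 1.11. On the log2(FPKM + 1) scale the wild-type difference of 0.81 (SE 0.10, limma adjusted p = 2.418e-05) passed the p limit but not the limit of 1. It passed both with a pseudocount of 0.1 (1.14), as TPM (1.09) and with median-ratio scaling (1.06). The Nlrp3-/- difference was 0.12 (95% interval -0.11 to 0.35, limma adjusted p = 0.3216). Of the Gbp8 transcript 28.4% aligned at 95% identity or more to Gbp11 and 19.5% to Gbp6, so part of its reads may be shared with these genes and its values are uncertain.

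The order of the levels with LPS+ATP was the same in both genotypes: Gbp2, Gbp3, Gbp5, Gbp6, Gbp7, Gbp9, Gbp4, Gbp10, Gbp8 and Gbp2b. The libraries of neighbours in this order did not overlap, except for Gbp9 and Gbp4 in Nlrp3-/- BMDMs. The places of Gbp6, Gbp10 and Gbp8 are uncertain, because their reads may be shared with other genes. Overlap between libraries does not measure that. In controls the order was Gbp2, Gbp3, Gbp7, Gbp9, Gbp6, Gbp8, Gbp5, Gbp10, Gbp4 and Gbp2b in wild-type BMDMs, where Gbp8 and Gbp5 overlapped. In Nlrp3-/- controls Gbp8 and Gbp6 changed places, and Gbp8 overlapped both Gbp9 and Gbp6.

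Gbp2 made up 46.0% of the summed FPKM of the 10 genes in wild-type controls and 52.4% with LPS+ATP, and 50.9% and 54.4% in Nlrp3-/- BMDMs. The share of Gbp5 went from 3.44% to 12.3% in wild-type and from 2.19% to 11.2% in Nlrp3-/- BMDMs. Gbp7 went the other way, from 13.2% to 5.45% and from 10.8% to 4.82%, as did Gbp9, from 9.31% to 2.15% and from 8.08% to 2.30%. The share of Gbp8 shrank from 4.10% to 0.251% and from 7.16% to 0.243%. Shares of Gbp6, Gbp10 and Gbp8 carry the same uncertainty as their levels. Gbp3 kept a share of 12.1% to 16.5% in the 4 groups.

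**Figure D3:**
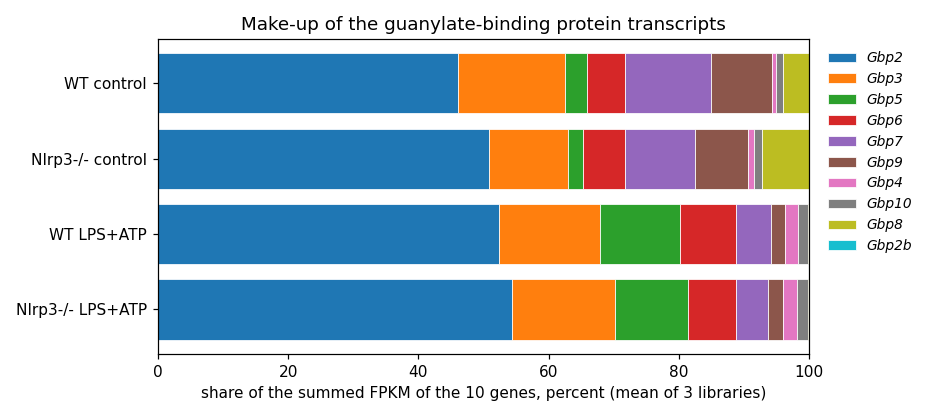
Share of the summed FPKM of the 10 guanylate-binding protein genes taken by each gene (horizontal axis, percent, mean of 3 libraries) in the 4 groups. Gbp2 takes 46.0% to 54.4% in every group, Gbp5 widens with LPS+ATP to 12.3% and 11.2%, and Gbp7, Gbp9 and Gbp8 narrow.

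Comparing Nlrp3-/- with wild-type BMDMs, no guanylate-binding protein gene passed both limits of limma, either in controls or with LPS+ATP. Among all tested genes 6.71% did in controls and 5.05% with LPS+ATP. At an unadjusted p under 0.05 there were 6 members in controls and 3 with LPS+ATP, and at an adjusted p under 0.05 alone there were 6 and 2, where 47.8% and 48.5% of tested genes passed. The median difference of the 9 tested members was 0.15 in controls and 0.00 with LPS+ATP on the log2(FPKM + 1) scale, against 0.09 and 0.11 over all tested genes. Members with higher and with lower values occurred in both states, but with LPS+ATP the directions depended on the scaling, as values with median-ratio scaling show.

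In controls Gbp2 was higher in Nlrp3-/- BMDMs by 0.30 (SE 0.03, limma adjusted p = 1.107e-05), Gbp4 by 0.18 (0.004986), Gbp10 by 0.15 (0.03683) and Gbp8 by 0.65 (SE 0.10, 0.0003289). Of these, Gbp10 missed the p limit under 4 of 9 other settings. Its reads may also be split with Gbp6 and Gm43302, so its direction is uncertain. Gm43302 was at 1.11 to 1.18 FPKM in wild-type controls and 0.0 to 1.34 in Nlrp3-/- controls. Lower in Nlrp3-/- controls were Gbp3, which fell by 0.23 (limma adjusted p = 0.004108), and Gbp5, which fell by 0.24 (0.007102). These 6 genes were also those whose libraries did not overlap between the genotypes, which held for 56.0% of tested genes. The differences of Gbp6 (0.23), Gbp7 (-0.09) and Gbp9 (-0.03) did not pass. Gbp8 had the widest difference, with a ratio of means of 1.96. At low levels the added 1 shrinks differences: the ratios of means were 1.76 for Gbp4, 1.41 for Gbp10 and 0.714 for Gbp5. With a pseudocount of 0.1 the differences of Gbp4, Gbp10 and Gbp5 were 0.59, 0.4 and -0.44, and that of Gbp8 was 0.93. Neutrophil and fibroblast marker sums were also higher in Nlrp3-/- controls, as given above, and their part in these differences was not tested.

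With LPS+ATP, Gbp4, higher in Nlrp3-/- BMDMs by 0.12 (limma adjusted p = 0.034), and Gbp7, at -0.19 (limma adjusted p = 0.04256), passed the p limit alone. Gbp4 no longer did under 5 of 9 other settings (adjusted p up to 0.925) and Gbp7 under 4 of 9, and leaving out 1 library ended that for 5 of 12 libraries in Gbp4 and 10 of 12 in Gbp7. The 95% intervals of all 9 differences lay between -0.43 and 0.23. For Gbp2 the difference was 0.04 (95% interval -0.03 to 0.11) and for Gbp3 0.00 (-0.12 to 0.12). Libraries of 6 of the 9 tested members did not overlap, against 57.9% of tested genes, and where they were apart the distance was small, as for Gbp10 at 19.7 to 20.2 against 21.5 to 22.1 FPKM. Directions of differences of this size depend on scaling: with median-ratio scaling, which moved the median of all genes by -0.15, all 9 members were lower in Nlrp3-/- BMDMs, by differences of -0.38 to -0.06, and 5 of them had an adjusted p under 0.05. For Gbp6 and Gbp10 the direction is uncertain also because reads may be split with Gm43302. With LPS+ATP Gm43302 was at 39.5 to 42.0 FPKM in wild-type and 28.8 to 31.4 in Nlrp3-/- libraries, lower where Gbp10 was higher.

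**Figure D4:**
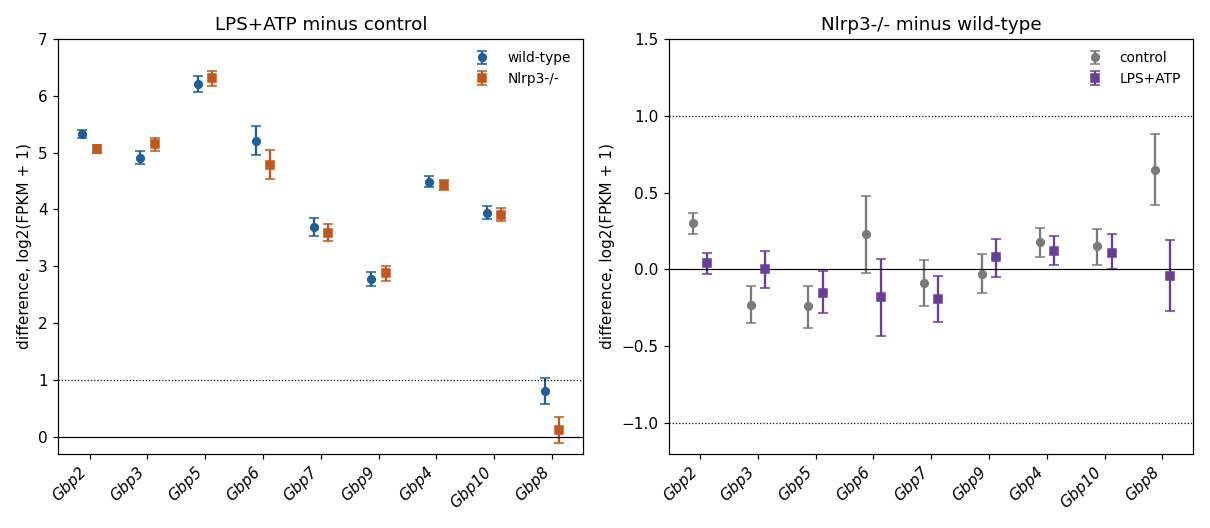
Differences on the log2(FPKM + 1) scale with 95% intervals (vertical axes) for the 9 tested genes, LPS+ATP minus control in each genotype on the left and Nlrp3-/- minus wild-type in each state on the right, with dotted lines at the limit of 1. On the left 8 genes lie between 2.78 and 6.31 and Gbp8 under 1, and on the right all differences lie between -0.24 and 0.65.

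The response to LPS+ATP differed between the genotypes in 3 members by the adjusted p of the interaction alone, where 27.7% of tested genes passed, and in none by both limits, where 2.15% did. With no adjustment 4 members had p under 0.05. The response of Gbp8 was smaller in Nlrp3-/- BMDMs, by an interaction of -0.70 (SE 0.15, limma adjusted p = 0.00498), as was that of Gbp2 (-0.27, SE 0.04, limma adjusted p = 0.001211). That of Gbp3 was larger (0.23, SE 0.08, limma adjusted p = 0.04156). The p limit held for Gbp8 and Gbp2 under the 8 other settings run and without any 1 library. Gbp3 missed it under 4 of 8 settings, with adjusted p up to 0.148, and for 10 of the 12 libraries left out. Gbp4 did not pass it with the added 1 (-0.06, limma adjusted p = 0.5433). It did with a pseudocount of 0.1 (-0.47, limma adjusted p = 0.01194) and with median-ratio scaling (-0.19, limma adjusted p = 0.02968). Gbp6, at -0.42 (limma adjusted p = 0.07834), passed it with median-ratio scaling (-0.49, limma adjusted p = 0.04152) and upper-quartile scaling (-0.48, limma adjusted p = 0.0453). Reads of Gbp6 may be split with Gbp10 and Gm43302, so its single values are uncertain. For Gbp2, median-ratio scaling gave genotype differences of 0.16 in controls and -0.16 with LPS+ATP, where the unscaled values were 0.30 and 0.04.

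Across the 12 libraries the log2(FPKM + 1) values of the 8 called members correlated with each other at Pearson's r of at least 0.996, while Gbp8 correlated with them at 0.65 to 0.697. These coefficients describe 4 clusters of 3 libraries and mostly reflect the step between controls and LPS+ATP. The 5 tested genes whose profile was most like the mean of the 9 members, each over 12 libraries, were Il6 (r = 0.9992), Hcar2 (0.999), Map2k1 (0.999), Orai2 (0.9989) and Ccl2 (0.9985). Ccl2, a monocyte chemokine, went from a mean of 34.5 to 599 FPKM in wild-type and from 45.1 to 525 in Nlrp3-/- BMDMs.

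Genes that act before the guanylate-binding proteins were taken from lists. Of 9 interferons, receptors and kinases 8 were tested. Ifng (2.15 in wild-type and 2.02 in Nlrp3-/- BMDMs on the log2(FPKM + 1) scale) and the receptor kinase Jak2 (2.94 and 2.38) were called higher in both genotypes. So were 8.25% of all tested genes in wild-type and 6.64% in Nlrp3-/- BMDMs. Ifngr1, the ligand-binding chain of the interferon-gamma receptor, was called lower, at -2.12 and -1.67, as were 11.2% and 8.21% of all tested genes. Ifng passed the filter through its LPS+ATP libraries alone, so it had to differ. It was listed at 0 in wild-type controls and reached 3.21 to 3.68 FPKM with LPS+ATP, and 2.85 to 3.73 in Nlrp3-/- LPS+ATP libraries. Summed T and natural killer cell markers (7 genes) were at 9.1 to 10 FPKM in wild-type controls against 3.89 to 4.42 with LPS+ATP. In Nlrp3-/- BMDMs they were at 23.5 to 24.8 against 6.52 to 7.38. Of these markers, Cd3e did not exceed 0.0609 FPKM and Ncr1 0.316 in any library. Nkg7 did not exceed 0.383 in wild-type libraries, and was at 1.73 to 2.44 in Nlrp3-/- controls and 0.198 to 0.566 with LPS+ATP. The sums thus came mostly from other markers of the list, and Cd3e, Ncr1 and Nkg7 do not stand for it. The part of T and natural killer cells in the Ifng values was not tested. Ifnb1, which encodes interferon-beta, did not pass the filter. It was at 0 in wild-type controls, at 0.407, 0.292 and 0.708 FPKM with LPS+ATP and at 0.737, 0.676 and 0.694 in Nlrp3-/- LPS+ATP libraries.

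Of 10 transcription factors of the interferon response 5 were called higher in wild-type and 6 in Nlrp3-/- BMDMs, and none lower. The shares called higher among all tested genes were 8.25% and 6.64%. Irf7 had the largest difference (4.30 and 4.90), and in wild-type BMDMs the called genes included Irf1 (2.74), Batf2 (2.37) and Stat2 (2.25). The list's median was 1.51 in each genotype. Among 6 brakes on interferon signalling, Usp18, Socs1 and Socs3 were called higher in both genotypes, Socs1 having passed the filter through its LPS+ATP libraries alone. Socs3, a feedback inhibitor of cytokine receptors, rose by 4.02 in wild-type and by 2.86 in Nlrp3-/- BMDMs. It was the one member of this list called by the interaction (-1.17, limma adjusted p = 6.148e-07), as were 2.15% of all tested genes.

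Other tested interferon-induced genes moved with the guanylate-binding proteins under LPS+ATP, where 8.25% of all tested genes were called higher in wild-type and 6.64% in Nlrp3-/- BMDMs. All 11 tested members of a list of immunity-related GTPases and other interferon-induced GTPases were called higher in both genotypes, with medians of 3.66 and 4.55. In wild-type BMDMs the largest differences were those of Iigp1 (5.18), Tgtp2 (5.15), Tgtp1 (5.14) and Mx1 (4.94). From a list of 11 further interferon-induced genes 10 were tested, and all 10 were called higher, with medians of 5.40 and 6.15. The other, Ciita, did not pass the filter. It was at 0.261, 0.413 and 0.403 FPKM in wild-type controls and at 0.143, 0.3 and 0.204 with LPS+ATP. In Nlrp3-/- BMDMs Ciita was at 0.501, 0.211 and 0.404 in controls and at 0.477, 0.513 and 0.447 with LPS+ATP. In wild-type BMDMs this list was led by Cxcl10 (7.30), Cxcl9 (6.85), Rsad2 (6.34) and Isg15 (5.95). Cxcl9 passed the filter through its LPS+ATP libraries alone.

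Between genotypes some genes of these lists were called, where 6.71% of all tested genes were called in controls and 5.05% with LPS+ATP. Among the other GTPases, Tgtp2 was called higher in Nlrp3-/- controls (1.05) and Igtp in Nlrp3-/- LPS+ATP libraries (1.25), while the list medians were -0.37 and 0.01. Ifi47 stood at 1.28 with LPS+ATP but did not pass (SE 0.53, limma adjusted p = 0.06696). Among the further interferon-induced genes, Ifit2 (-1.06), Ifit3 (-1.11) and Rsad2 (-1.08) were called lower in Nlrp3-/- controls, with a list median of -0.86. With LPS+ATP Rsad2 was called lower (-1.23) and the chemokine gene Cxcl9 higher (1.37). Whether these lists differ from the guanylate-binding proteins was not tested.

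**Figure D5:**
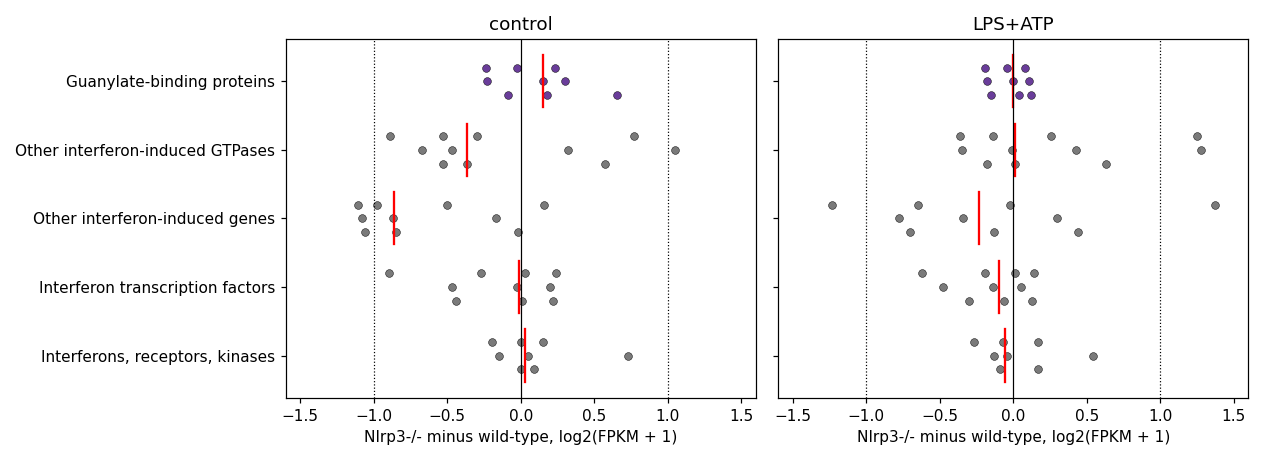
Nlrp3-/- minus wild-type differences on the log2(FPKM + 1) scale (horizontal axes) for tested genes of 5 lists, 1 point per gene, in controls (left) and with LPS+ATP (right), with red bars at the list medians and dotted lines at -1 and 1. With LPS+ATP the 9 guanylate-binding protein genes lie between -0.19 and 0.12, and points of the other interferon-induced lists reach -1.23 and 1.37.

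Genes that act with or after the guanylate-binding proteins come from 3 lists. Of 8 inflammasome genes Casp4, which encodes caspase-11 (2.68 in wild-type and 2.35 in Nlrp3-/- BMDMs), and Casp1 (1.85 and 1.45) were called higher with LPS+ATP in both genotypes, and Nlrp3 in wild-type BMDMs (1.67). Pycard, which encodes the adaptor ASC, was called lower (-1.36 and -1.16). Of all tested genes 8.25% in wild-type and 6.64% in Nlrp3-/- BMDMs were called higher, and 11.2% and 8.21% lower. None of 5 genes of prenylation enzymes was called in any comparison. Between genotypes 6.71% of all tested genes were called in controls and 5.05% with LPS+ATP, and by the interaction 2.15%. At such shares the lack of calls among 5 genes says little about them. Of 9 autophagy conjugation genes, whose products help to place guanylate-binding proteins on vacuoles, Atg7 was called lower in wild-type BMDMs (-1.30), and none was called in Nlrp3-/- BMDMs, where Atg7 stood at -0.97.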

How the data were processed

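RNA of wild-type and Nlrp3-/- BMDMs, as controls and with LPS+ATP, was measured in 12 libraries, 3 per group. The authors deposited 1 table of FPKM per gene and library. The aligner, quantifier and gene annotation are not given in the sources used here. The submitters' processing notes name build GRCm39 and DESeq2 1.24.0. FPKM carries no read counts, so depth in reads is unknown. The deposited gene values look like sums over transcripts, since 97.1% of genes with 2 or more annotated transcripts and 0.59% of genes with 1 had over 6 decimals. No column of per-library values was left unused.

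Groups and replicate numbers came from the labels. The filter kept the 12622 of 55335 genes that reached 1 FPKM in 3 or more of the 12 libraries. With limma 3.58.1 in R 4.3.3, log2(FPKM + 1) was fitted with 1 mean per group, a variance trend and Benjamini-Hochberg adjustment over all tested genes. The contrasts were: LPS+ATP in each genotype, genotype in each state, and the interaction. Calls needed an adjusted p under 0.05 and a difference of at least 1. The script was tested on simulated data. Ratios are of the groups' mean FPKM.

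The 10 members, the gene lists, the marker lists and the tests were chosen with earlier results of these data known. All 10 members were named. From each list, called members or up to 4 with the largest differences were named, and listed genes too low for the filter. The 5 genes whose log2(FPKM + 1) profile correlated best with the members' mean were named too. A gene of the transcription factor list is not reported here by name. Gene positions and shared exons came from GENCODE M21 (GRCm38), near copies from blastn 2.17.0+, and promoters from RefSeq (GRCm38.p6). Other steps ran in Python 3.11.15 with pandas 2.3.3, numpy 2.4.6 and matplotlib 3.10.9. Alternatives were another pseudocount, filter, scaling and limit, the replicate number as a block, and leaving out each library.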

Additional observations from a re-analysis of the deposited data

Results flagged for a closer look

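The response to LPS+ATP differed between wild-type and Nlrp3-/- BMDMs, by a limma adjusted p of the interaction under 0.05, in Gbp8 (interaction -0.70 on the log2(FPKM + 1) scale), Gbp2 (-0.27) and Gbp3 (0.23). None of these reached a difference of 1, and 27.7% of all tested genes passed the same p limit, so 3 of 9 tested members is near that share. The Gbp3 result was lost under 4 of 8 other settings and for 10 of 12 libraries left out. In Gbp8 the ratio of mean FPKM was 2.28 in wild-type and 1.11 in Nlrp3-/- BMDMs, in Gbp2 42.6 and 35.0, and in Gbp3 35.1 and 42.4. Without scaling, Nlrp3-/- minus wild-type differences of Gbp8, Gbp2 and Gbp3 were 0.65, 0.30 and -0.23 in controls. With LPS+ATP they were -0.04, 0.04 and 0.00. Neutrophil and fibroblast marker sums also differed between control genotypes, and donor sex cannot be told apart from genotype. The part of these was not tested. Groups of 3 libraries were not examined for outlying libraries.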

How the results depend on the processing

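The number of members called higher with LPS+ATP was 8 in each genotype and stayed at 8 or 9 in wild-type and at 8 in Nlrp3-/- BMDMs under every alternative run, and at 8 when any 1 library was left out. Without the limit on size, 6 members were called in the genotype comparison of controls, 2 with LPS+ATP and 3 in the interaction. These counts were otherwise 0, also when any 1 library was left out. By the adjusted p alone, the small genotype differences of Gbp10 in controls, and of Gbp4 and Gbp7 with LPS+ATP, and the interaction of Gbp3 were lost under several settings. Small uncalled differences changed sign. In the genotype comparison with LPS+ATP, median-ratio scaling gave -0.16 for Gbp2, -0.19 for Gbp3, -0.06 for Gbp4, -0.11 for Gbp9 and -0.07 for Gbp10, and upper-quartile scaling gave -0.08, -0.12, -0.04 (Gbp9) and 0.00 (Gbp10). The interaction of Gbp5 was -0.03 with median-ratio scaling. Leaving out 1 library gave 0.02 (without wild-type control replicate 3) and 0.01 (without Nlrp3-/- control replicate 2) for Gbp9 between control genotypes, -0.02 to 0.01 for Gbp3 and -0.13 to 0.01 for Gbp8 between LPS+ATP genotypes, and 0.02 for Gbp10 in the interaction. Scaling moved the median of all genes by up to 0.25, and the cause of the sign changes was not tested beyond that. No pairing by replicate number was seen: same-numbered deviations correlated at -0.057 to 0.053 and others at -0.069 to 0.099. Whether same-numbered libraries share a mouse or culture is still not known. With the replicate number as a block the counts were 8 and 8 for LPS+ATP and 0 for both genotype comparisons and the interaction. With no counts, the depth behind single values such as those of Gbp2b is unknown.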

Other observations

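Gbp11, a further gene of the family that was not among the 10 and was named here after its values were seen, was at 0.0185 to 0.0898 FPKM in wild-type controls and at 8.37 to 9.04 with LPS+ATP, and at 0.0182 to 0.0639 and 6.27 to 7.22 in Nlrp3-/- BMDMs. Between genotypes with LPS+ATP it fell by 0.31 on the log2(FPKM + 1) scale (limma adjusted p = 0.001019), which is under the limit of 1. The pseudogene Gbp2-ps was listed at 0 in all 12 libraries.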
